A study of Danio rerio with 340 samples.

Results

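The genes described here are 9 zebrafish genes of the Nrf2 oxidative stress response, taken by symbol from a table of 31658 genes measured in 340 single whole larvae. They are gclc, gclm, hmox1a, nqo1, srxn1, prdx1, sqstm1, keap1a and keap1b, and all 9 symbols were in the table. Of these, 8 had enough counts to be tested in each experiment, and srxn1 did not.

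Embryos were exposed without a change of medium, beginning at 5 to 6 h post fertilization, and were lysed as single larvae at 5 days post fertilization, and 3′ ends of RNA were sequenced by Lasy-Seq, a method in which each larva receives its own index at reverse transcription before pooling. The study asked how far the genetic background of a strain shapes the response to developmental toxicants. Valproic acid, an antiepileptic that inhibits histone deacetylases, was given at 1, 5 and 20 µM to larvae of AB, TU, RW, WIK and PET, with 40 larvae at each dose and 40 larvae at 0 µM. Hydroxyurea, an inhibitor of ribonucleotide reductase, was given at 1.3, 6.6 and 33 mM to larvae of AB, TU, RW and PET, with 26, 28 and 26 larvae, and 24 larvae stood at 0 mM. Warfarin, a vitamin K antagonist, was given at 150 and 300 µM to larvae of the same 4 strains, with 26 and 25 larvae, and 25 larvae stood at 0 µM. AB, TU and WIK are laboratory strains from a stock center, RW is a strain from a national resource in Japan, and PET fish came from a pet shop. Compounds were dissolved in water or DMSO, and which of them applied to each compound is not given in the sources used here. Each compound had its own larvae at 0. Eggs came from pairs of adults of 1 strain, and which larvae shared parents is not given, so strain and clutch cannot be told apart and the p-values measure only the spread between single larvae.

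Nrf2 is a transcription factor that the adaptor Keap1 holds in the cytoplasm and passes to a Cul3 ubiquitin ligase for degradation. Electrophiles and oxidants modify cysteines of Keap1, Nrf2 then accumulates, and with small Maf proteins it turns on genes of glutathione synthesis, thiol reduction, NADPH supply, quinone reduction and heme breakdown. Zebrafish carry a pair of Keap1 genes and a pair of Nrf2 genes (nfe2l2a and nfe2l2b), and the pathway is active in early larvae.

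The total count per larva ran from 124136 to 14186334 with a median of 2272278. At the highest dose its median was 1861694 for valproic acid and 1825796 for hydroxyurea, against 2745997 and 2698896 at 0 of the same experiment, whereas warfarin 300 µM larvae had a median of 2023498, against 1750797 at 0 µM. All values below are CPM, the count of a gene relative to the total of its larva, after scaling by the trimmed mean of M-values (TMM) within an experiment, so levels are compared within a gene and within an experiment. Whole larvae were lysed, and a lower level of a transcript from fewer cells of a type or from less RNA per cell cannot be told apart. Markers of tissues moved with dose: all 4 markers of the exocrine pancreas fell at the highest dose of each compound, with median sums of 302, 532 and 1636 CPM with valproic acid, hydroxyurea and warfarin, against 4609, 3448 and 5209 CPM in their controls. All 3 tested enterocyte markers were lower at valproic acid 20 µM and hydroxyurea 33 mM, and 1 of 3 at warfarin 300 µM. Of 4 erythroid markers 3 were higher at valproic acid 20 µM, and 2 were higher and 1 lower at hydroxyurea 33 mM. Of 4 neuron markers 2 and 3 were lower at these doses. The part of such shifts in the results on the Nrf2 genes was not tested.

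srxn1, which encodes sulfiredoxin, the enzyme that repairs overoxidized peroxiredoxins, was rarely counted. It had 73 counts in all 340 larvae, 19 larvae had a count and 11 had at least 3. No larva of the warfarin experiment had an srxn1 count at 0, 150 or 300 µM, so no change of srxn1 was detectable in these counts. Whether the annotation used covers the 3′ end of srxn1 could not be checked. The other 8 genes had a median of 10 (keap1b) to 213.5 (prdx1) counts per larva, and keap1a and keap1b, with medians of 15 and 10 counts, were the least precisely measured. Reads shared between keap1a and keap1b, or between hmox1a and its paralog, could have been split by the counting, whose rules are not given in the sources used here.

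At the highest doses, prdx1 was higher with each of the 3 compounds, gclc and gclm were higher with warfarin, and nqo1 and hmox1a were lower with valproic acid. A gene was called where edgeR's quasi-likelihood test, with strain and dose as terms, gave a Benjamini-Hochberg adjusted p under 0.05 over all genes tested. By that rule 3 of 8 genes were higher at warfarin 150 µM and 5 of 8 at 300 µM, where 1.83% and 5.1% of 12127 genes were called higher. With hydroxyurea 4 of 8 were higher at 33 mM, where 12.3% of 14173 genes were called higher. With valproic acid 1 of 8 was higher and 2 were lower at 20 µM, where 10.6% of 16252 genes were called higher and 12.5% lower. Of these valproic acid calls, nqo1 passed the test in 12 of 12 alternative analyses, and prdx1 and hmox1a each in 7 of 12. Of the hydroxyurea calls at 33 mM, prdx1 passed in 11 of 11, sqstm1 in 10, and hmox1a and nqo1 each in 6. Of the warfarin calls at 300 µM, gclc, gclm and prdx1 passed in 10 of 10, and hmox1a and sqstm1 each in 8. The median log2 fold change of the 8 genes at the highest dose was 0.53 with warfarin, 0.29 with hydroxyurea and -0.17 with valproic acid, beside medians over all genes tested of 0.0012, 0.046 and 0.094.

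**Figure D1:**
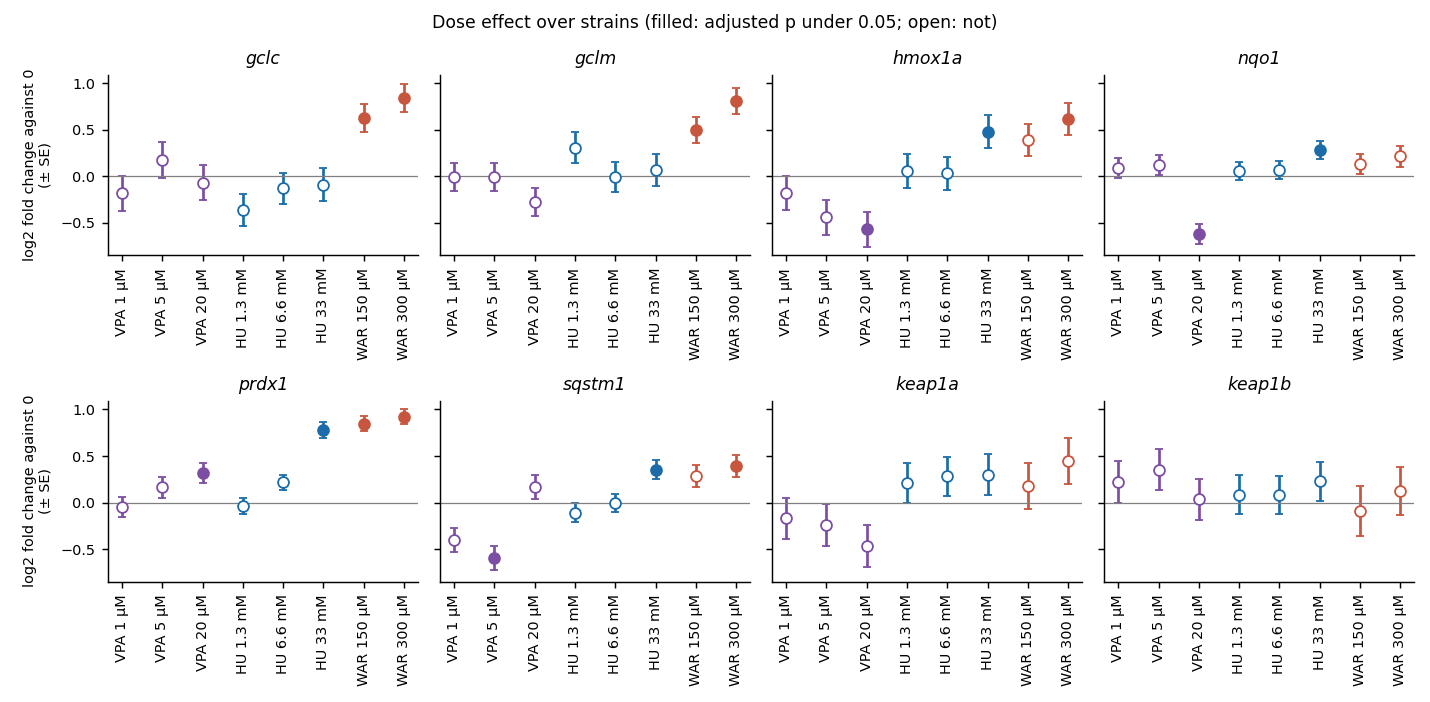
Log2 fold change of 8 Nrf2 genes at each dose against 0 of the same experiment, with strain as a term; points are estimates and bars their SE, and filled points passed an adjusted p of 0.05. The warfarin points (right) of gclc, gclm and prdx1 are filled at both doses, and the prdx1 points at the highest dose of each compound are all above 0.

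With warfarin both subunits of glutamate-cysteine ligase, the enzyme of the rate-limiting step of glutathione synthesis, were higher. gclc, the catalytic subunit, ran from 5.61 to 38.9 CPM with a median of 26.6 in the 25 larvae at 300 µM, against 2.28 to 25.2 CPM with a median of 13.1 in the 25 larvae at 0 µM. The groups overlapped, with 15 of 25 exposed larvae above every control and 22 of 25 above the control median. Its log2 fold change was 0.84 (SE 0.15, 1.78-fold) with an adjusted p of 1.35e-05 by edgeR's quasi-likelihood test. At 150 µM gclc was already higher, with a median of 20.2 CPM and a log2 fold change of 0.63 (SE 0.15, adjusted p 0.00438), a call lost without the AB or the RW larvae (0.65 and 0.47, adjusted p 0.0853 and 0.138). gclm, the modifier subunit, ran from 8.21 to 50.4 CPM with a median of 25.2 at 300 µM, against 2.93 to 34.3 CPM with a median of 13.5 at 0 µM. The highest control was a TU larva at 34.3 CPM, and 2 exposed larvae lay above every control and 23 of 25 above the control median. The log2 fold change of gclm was 0.81 (SE 0.14, adjusted p 7.56e-06) at 300 µM and 0.50 (SE 0.14, adjusted p 0.0260) at 150 µM, and the call at 150 µM was lost without the AB or the RW larvae (0.41 and 0.45, adjusted p 0.385 and 0.145).

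prdx1, which encodes a peroxiredoxin that reduces hydrogen peroxide with electrons from thioredoxin, was higher at both warfarin doses. It ran from 75.5 to 227 CPM with a median of 150.5 at 300 µM, and from 80.1 to 248 CPM with a median of 139 at 150 µM, against 51.7 to 113 CPM with a median of 74.5 at 0 µM. Within their own strain, 26 of 26 larvae at 150 µM and 24 of 25 at 300 µM lay above every control. The log2 fold change was 0.84 (SE 0.080, adjusted p 2.88e-14) at 150 µM and 0.92 (SE 0.081, 1.90-fold, adjusted p 2.28e-16) at 300 µM by edgeR's quasi-likelihood test.

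hmox1a, which encodes heme oxygenase 1, and sqstm1, which encodes the autophagy receptor p62 that binds Keap1, were also higher at 300 µM. hmox1a ran from 7.01 to 52.0 CPM with a median of 24.3 at 300 µM, against 2.43 to 25.2 CPM with a median of 15.6 at 0 µM, and 12 of 25 exposed larvae lay above every control. Its log2 fold change was 0.62 (SE 0.17, adjusted p 0.00825). sqstm1 ran from 9.63 to 98.4 CPM with a median of 59.5 at 300 µM, against 21.1 to 89.9 CPM with a median of 48.1 at 0 µM, and its log2 fold change was 0.39 (SE 0.12, adjusted p 0.0193). The sqstm1 groups overlapped, with 3 of 25 exposed larvae above every control and 17 of 25 above the control median. At 150 µM the log2 fold changes of hmox1a and sqstm1 were 0.39 (SE 0.17, adjusted p 0.243) and 0.29 (SE 0.12, adjusted p 0.227). Both calls at 300 µM were lost without the PET larvae, with log2 fold changes of 0.53 (adjusted p 0.09996) for hmox1a and 0.24 (adjusted p 0.302) for sqstm1, and also without the RW larvae, with 0.58 (adjusted p 0.0620) and 0.40 (adjusted p 0.0708).

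nqo1, which encodes the quinone reductase widely used as a readout of Nrf2 in mammalian cells, did not pass the test over strains with warfarin. It ran from 41.7 to 226 CPM with a median of 95.4 at 300 µM, against 56.3 to 176 CPM with a median of 89.6 at 0 µM, a log2 fold change of 0.21 (SE 0.11, adjusted p 0.251). In RW the nqo1 median was 164 CPM at 300 µM, against 96.8 CPM at 0 µM. It did not pass in RW in the fit of all strains. It was called there where RW was fitted alone (0.76, adjusted p 0.04999) and without RW larva 4 or 5 at 300 µM (0.89 and 0.86). The nqo1 medians in AB, PET and TU were 126, 90.9 and 80.0 CPM, against 115, 69.7 and 89.6 CPM at 0 µM. keap1a and keap1b, which encode the 2 Keap1 proteins, had log2 fold changes of 0.45 (SE 0.25, 95% interval -0.033 to 0.93, adjusted p 0.283) and 0.12 (SE 0.26, 95% interval -0.39 to 0.63, adjusted p 0.855) at 300 µM.

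No gene of the 8 passed the test between 300 and 150 µM, where 1.45% of all genes were called, and 1 of the 8 had an unadjusted p under 0.05. That gene was gclm, with a log2 fold change of 0.31 (SE 0.14, adjusted p 0.392 by edgeR's quasi-likelihood test). DESeq2 was not run on this step.

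**Figure D2:**
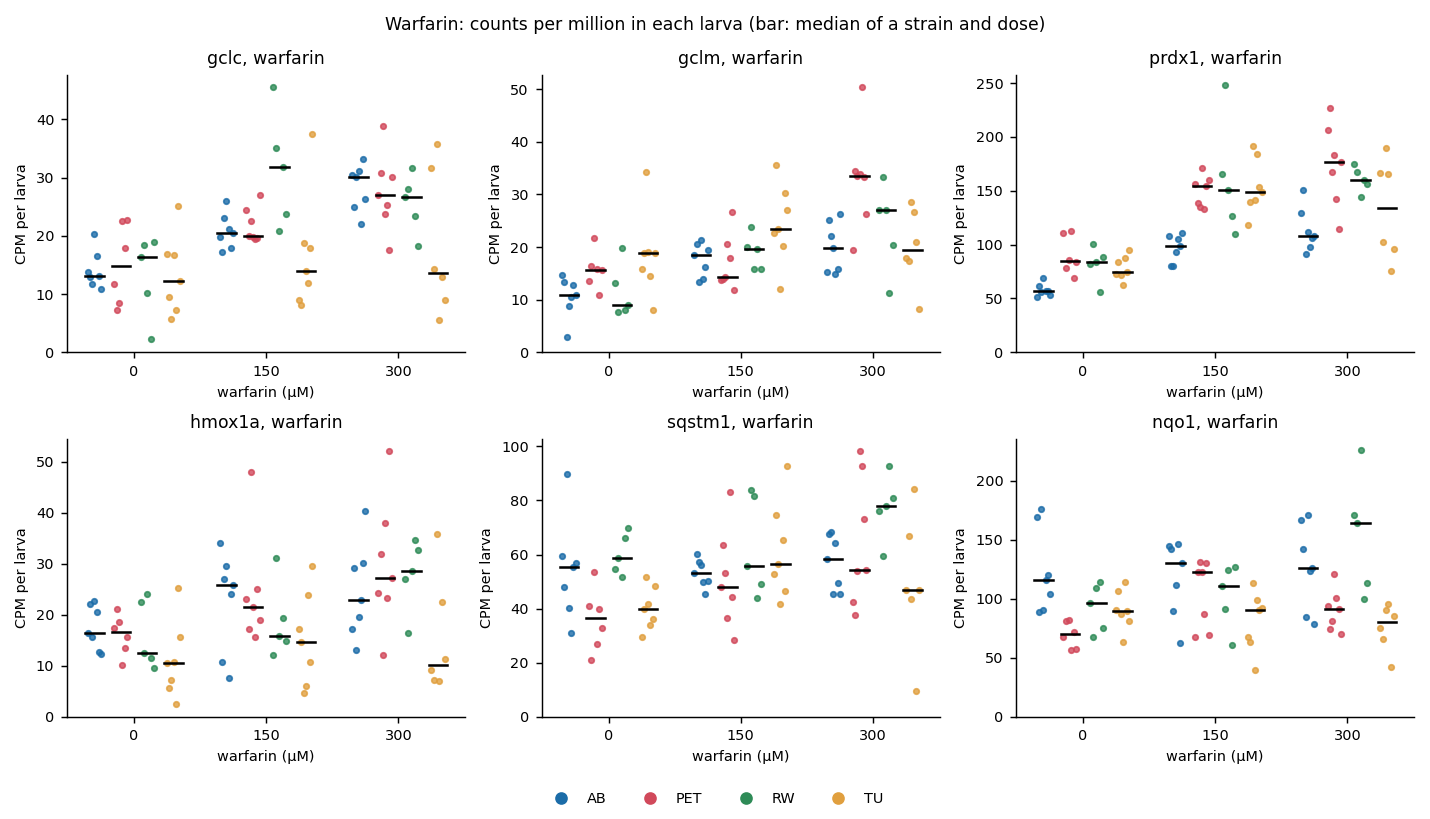
CPM of 6 Nrf2 genes in each larva (points) by warfarin dose and strain (colors), with a black bar at the median of each strain and dose. In the prdx1 panel, larvae at 150 and 300 µM lie above the controls of their strain with 1 exception, a TU larva at 75.5 CPM, whereas the nqo1 groups overlap at every dose.

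Within strains, prdx1 was called at 150 and at 300 µM in all 4 strains, in a fit with its own mean for every strain at every dose. At 150 µM its log2 fold change was 0.75 in AB, 0.73 in PET, 0.94 in RW and 0.99 in TU, where 0.283%, 0.236%, 0.236% and 0.465% of 14826 genes were called higher. At 300 µM it was 0.97 in AB, 0.97 in PET, 0.96 in RW and 0.80 in TU, with adjusted p-values between 2.84e-06 and 0.000719 by edgeR's quasi-likelihood test, and the share of genes called higher was 1.1% in AB, 0.418% in PET, 0.688% in RW and 1.22% in TU. In RW, with 5 larvae in each group, prdx1 stood at 175, 168, 145, 159.9 and 157 CPM at 300 µM, against 81.6, 100.3, 83.4, 55.8 and 88.7 CPM at 0 µM, and no value overlapped. gclm was called at 300 µM in AB (0.86, adjusted p 0.0370), PET (1.10, adjusted p 0.00927) and RW (1.02, adjusted p 0.0420). In RW gclm was 27.0, 33.2, 27.1, 11.2 and 20.3 CPM at 300 µM, against 13.2, 7.64, 19.9, 7.97 and 8.93 CPM at 0 µM, and this call was lost when any of 8 single RW larvae was left out, with log2 fold changes from 0.86 to 1.05. The RW call was also lost where RW was fitted alone (1.01, adjusted p 0.0716) and with larva number as a block (1.02, adjusted p 0.0514). In TU gclm had a median of 19.4 CPM at 300 µM, against 18.9 CPM at 0 µM. gclc was called in AB, at 22.1 to 33.3 CPM with a median of 30.1 at 300 µM, against 10.9 to 20.4 CPM with a median of 13.1 at 0 µM, a log2 fold change of 0.99 (adjusted p 0.0237) with no overlap. No strain by dose interaction passed the test for any of the 8 genes, where 0.546% of 14826 genes did, with unadjusted p-values under 0.05 for gclm (0.0173) and nqo1 (0.0139) and adjusted p-values of 0.470 and 0.420. DESeq2 was not run on the interaction, and the effects are not shown to differ between strains.

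The wider pathway was described by 8 lists of genes that share its steps. The lists follow places in the pathway but were chosen with earlier results of these data known, so their counts are a description only. The list medians at 300 µM stand beside a median of 0.0012 over all genes tested. Of all genes tested 5.1% were called higher and 5.49% lower. Of 7 tested regulators 1 was higher, nfe2l2b, one of the Nrf2 genes, with 1.39 to 23.6 CPM and a median of 10.7 at 300 µM, against 0 to 13.7 CPM and a median of 3.87 at 0 µM (log2 fold change 1.25, SE 0.26, adjusted p 0.000187). Its paralog nfe2l2a had a log2 fold change of -0.040 (SE 0.060, adjusted p 0.782). Among 10 tested genes of glutathione use 3 were higher and 2 lower, with a list median of -0.041. The higher genes were gsr, glutathione reductase, at a median of 47.7 CPM at 300 µM, against 27.5 CPM at 0 µM (0.87, adjusted p 2.62e-11), and the glutathione transferases gstp1 (0.45, adjusted p 3.70e-09) and gstp2 (1.46, adjusted p 0.000340). The gstp2 groups overlapped, at 25.7 to 689 CPM with a median of 99.7 at 300 µM, against 20.5 to 187 CPM with a median of 53.6 at 0 µM. Among 12 genes of the thioredoxin system 2 were higher and 3 lower, with a list median of 0.024. The higher genes were txn, thioredoxin, at a median of 187 CPM at 300 µM, against 114 CPM at 0 µM (0.76, adjusted p 1.77e-14), and txnrd3, a thioredoxin reductase (0.49, adjusted p 8.36e-05), whereas sesn1, a sestrin, fell (-0.62, adjusted p 1.74e-08).

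Of 7 tested genes that feed NADPH or the pentose phosphate pathway, 3 were higher and 1 lower at warfarin 300 µM, with a list median of 0.55. pgd, 6-phosphogluconate dehydrogenase, had a median of 70.2 CPM at 300 µM, against 41.4 CPM at 0 µM (0.82, adjusted p 1.24e-08), and tktb, a transketolase, had a log2 fold change of 0.55 (adjusted p 3.33e-06). Of 6 further targets 3 were higher and none lower, with a list median of 0.33. They were ugdh, which makes UDP-glucuronate, at a median of 160 CPM at 300 µM, against 53.0 CPM at 0 µM (1.68, adjusted p 2.20e-22), and ephx1, an epoxide hydrolase (0.51, adjusted p 0.0327). The other was abcc2, an export pump of conjugates, at 68.2 CPM at 300 µM, against 20.7 CPM at 0 µM (1.65, adjusted p 5.29e-17). Of 8 autophagy genes 2 were lower, map1lc3a (-0.43, adjusted p 0.000586) and map1lc3b (-0.41, adjusted p 0.00602), both LC3 proteins, with a list median of -0.14. The map1lc3b level ran from 62.2 to 123 CPM with a median of 92.2 at 300 µM. At 0 µM it ran from 51.7 to 533 CPM with a median of 112, and no fit was run without the highest control. None of 5 heme and iron genes and none of 4 tested superoxide dismutase and catalase genes passed edgeR's test, with 2 and 0 at an unadjusted p under 0.05 and 0 and 0 called by DESeq2. In the same larvae 2 of 5 hepatocyte markers were lower, and 4 of 4 exocrine markers, with a summed level of 466 to 2739 CPM at 300 µM, against 1856 to 8024 CPM at 0 µM, and no marker was at 0 in all larvae of a group.

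With hydroxyurea prdx1 was higher at the highest dose, sqstm1, nqo1 and hmox1a also passed the test and did not without some of the strains, and neither glutamate-cysteine ligase gene passed it. prdx1 ran from 71.7 to 181 CPM with a median of 124 in the 26 larvae at 33 mM, against 50.0 to 124 CPM with a median of 63.4 in the 24 larvae at 0 mM. All 26 exposed larvae were above the control median, and 20 exceeded every control of the same strain. The log2 fold change was 0.78 (SE 0.086, 1.71-fold, adjusted p 2.35e-13 by edgeR's quasi-likelihood test). Between 33 and 6.6 mM 2 of 8 genes were higher, prdx1 (0.56, SE 0.082, adjusted p 1.54e-08) and sqstm1 (0.36, adjusted p 0.00245), where 10.1% of all genes were called higher.

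sqstm1 ran from 33.5 to 96.7 CPM with a median of 60.9 at 33 mM, against 34.4 to 73.6 CPM with a median of 52.0 at 0 mM, and its log2 fold change was 0.35 (SE 0.098, adjusted p 0.00332). nqo1 ran from 51.2 to 143 CPM with a median of 103 at 33 mM, against 46.6 to 141 CPM with a median of 75.1 at 0 mM (0.28, SE 0.098, adjusted p 0.0229). hmox1a ran from 3.87 to 52.9 CPM with a median of 22.9 at 33 mM, against 1.53 to 34.5 CPM with a median of 16.9 at 0 mM (0.48, SE 0.18, adjusted p 0.0386). All 3 overlapped between doses, with 18, 22 and 19 of 26 exposed larvae above the control median for sqstm1, nqo1 and hmox1a. Without the PET larvae prdx1 was the 1 gene still called, and sqstm1, nqo1 and hmox1a had log2 fold changes of 0.19, 0.26 and 0.15 (adjusted p 0.298, 0.117 and 0.696). The hmox1a and nqo1 calls were also lost without a single AB control, larva 7, which had 1 count of hmox1a (1.53 CPM) and the lowest nqo1 of its group (56.5 CPM). Their adjusted p-values were 0.0686 and 0.0647 in the fit without it, and 0.317 and 0.447 without the TU larvae. They were 0.106 and 0.0634 with total count as a covariate, and 0.0745 and 0.0671 with no filter on low counts.

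gclc and gclm did not pass the test at 33 mM. gclc ran from 5.81 to 33.3 CPM with a median of 17.1 at 33 mM, against 10.0 to 93.1 CPM with a median of 16.9 at 0 mM, and the log2 fold change was -0.090 (95% interval -0.43 to 0.25, adjusted p 0.771). gclm had a median of 11.4 CPM at 33 mM, against 10.6 CPM at 0 mM, and a log2 fold change of 0.067 (95% interval -0.26 to 0.40, adjusted p 0.827). keap1a and keap1b had log2 fold changes of 0.30 (95% interval -0.13 to 0.72) and 0.23 (95% interval -0.19 to 0.64).

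**Figure D3:**
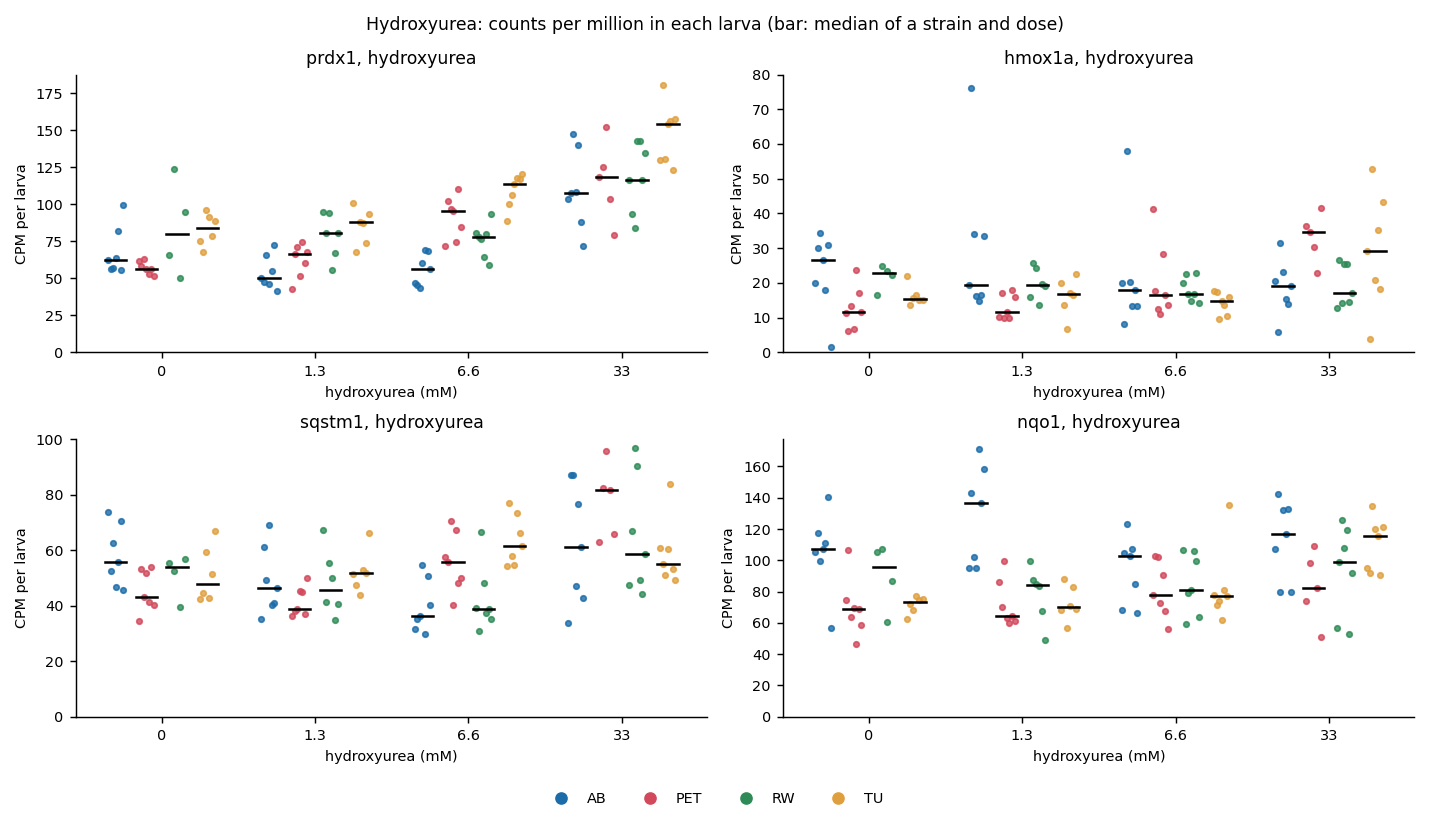
CPM of prdx1, hmox1a, sqstm1 and nqo1 in each larva (points) by hydroxyurea dose and strain (colors), with a black bar at the median of each strain and dose. At 33 mM the prdx1 medians of all strains, 108 to 154 CPM, lie above those at 0 mM, 56.5 to 83.8 CPM, and all 5 PET larvae at 33 mM lie above every PET control for sqstm1.

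At the lower hydroxyurea doses no gene of the 8 was called over strains by edgeR's quasi-likelihood test or by DESeq2, where 0% of genes were called at 1.3 mM and 1.28% at 6.6 mM. At each of these doses 1 of the 8 had an unadjusted p under 0.05. It was gclc at 1.3 mM (-0.36, unadjusted p 0.0392) and prdx1 at 6.6 mM (0.22, unadjusted p 0.0117), and prdx1 was called at 6.6 mM without the AB larvae (0.35, adjusted p 0.0280). Within PET, prdx1 was called at 6.6 mM (0.67, SE 0.15, adjusted p 0.00664), where 0.58% of genes were called higher in that strain.

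Within strains hmox1a and sqstm1 were called in PET. In the 5 PET larvae at 33 mM hmox1a was 36.5, 34.7, 30.5, 22.8 and 41.5 CPM, against 6.12 to 23.6 CPM with a median of 11.6 in the 7 PET larvae at 0 mM, a log2 fold change of 1.31 (SE 0.32, adjusted p 0.00247), where 3.66% of genes were called higher in that strain. Of the 5 exposed larvae 4 lay above every control. sqstm1 in the same 5 larvae was 62.8, 82.5, 95.7, 81.6 and 65.7 CPM, against 34.4 to 54.0 CPM with a median of 43.0 at 0 mM, with no overlap and a log2 fold change of 0.72 (SE 0.18, adjusted p 0.00279). In AB, hmox1a had a median of 19.0 CPM at 33 mM, against 26.5 CPM at 0 mM, and in TU a median of 29.2 CPM at 33 mM, against 15.4 CPM at 0 mM (0.78, adjusted p 0.140). The strain by dose interaction passed the test for hmox1a (adjusted p 0.0467) and sqstm1 (adjusted p 0.0370), 2 of 8 genes where 2.82% of 17236 genes passed it. The interaction of hmox1a did not pass with DESeq2 size factors (adjusted p 0.0525) or with larva number as a block (adjusted p 0.0855). prdx1 was called at 33 mM in AB (0.69), PET (0.97) and TU (0.77), where 2.49%, 3.66% and 2.15% of genes were called higher, and had a log2 fold change of 0.48 (adjusted p 0.0965) in RW, whose 4 controls were 65.5, 124, 50.0 and 94.5 CPM. Without the control at 124 CPM the RW log2 fold change was 0.75 (adjusted p 0.00759). nqo1 was called in TU, at 90.8 to 135 CPM at 33 mM, against 62.5 to 77.1 CPM at 0 mM, with no overlap (0.56, adjusted p 0.0483), a call lost with the total count of the larva as a covariate (0.53, adjusted p 0.126).

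In AB at 6.6 mM gclc had a log2 fold change of -1.38 (adjusted p 0.0416), where 0.83% of genes were called lower in that strain. This rested on AB control larva 7, with 61 gclc counts or 93.1 CPM, and without it the log2 fold change was -0.78 (adjusted p 0.211).

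In the wider pathway at hydroxyurea 33 mM, 3 of 12 thioredoxin genes were higher and 1 lower, with a list median of 0.051, beside 0.046 over all genes tested. Over all genes 12.3% were called higher and 12% lower at this dose, and the counts of the lists of 5 to 12 genes stand beside these shares. txn had a median of 153 CPM at 33 mM, against 103 CPM at 0 mM (0.60, adjusted p 4.53e-08), and prdx5, a peroxiredoxin, and sesn3, a sestrin, had log2 fold changes of 0.27 (adjusted p 0.00609) and 0.35 (adjusted p 0.0112). Of 7 NADPH genes 1 was higher, tktb (0.26, adjusted p 0.0422), and 2 lower, tkta (-1.25, adjusted p 7.60e-17) and idh1, an isocitrate dehydrogenase (-0.67, adjusted p 4.29e-09), with a list median of -0.023. Of 5 heme and iron genes 2 were lower, the ferritins fth1a (-0.33, adjusted p 4.63e-07) and fth1b (-0.36, adjusted p 0.0100), with a list median of -0.10. Of 5 superoxide dismutase and catalase genes 1 was lower, sod1 (-0.52, adjusted p 1.72e-09), with a list median of -0.12. abcc2 fell (-0.49, adjusted p 0.00466) and aox5, an aldehyde oxidase, rose (0.58, adjusted p 0.000832), among 6 further targets with a list median of 0.015. Of 11 glutathione genes 1 was higher, glrx (0.23, adjusted p 0.0182), and 1 lower, slc3a2a (-0.32, adjusted p 0.0129), with a list median of -0.084. Of 8 autophagy genes 2 were lower, gabarapa (-0.32, adjusted p 0.000416) and map1lc3a (-0.21, adjusted p 0.0403), with a list median of -0.11. None of 7 regulators was called by edgeR or DESeq2, and 0 had an unadjusted p under 0.05.

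Some leukocyte markers rose in the same larvae. Of 4 neutrophil markers 3 were higher at 33 mM, with a summed level of 102 to 475 CPM and a median of 254 CPM, against 52.4 to 275 CPM and a median of 106 CPM at 0 mM. Among them lyz, lysozyme, had a log2 fold change of 1.44 (adjusted p 4.19e-16). Of the 2 tested macrophage markers mfap4 was higher (1.15, adjusted p 0.00485), with a summed level of the 4 markers of 4.48 to 47.1 CPM at 33 mM, against 3.31 to 22.8 CPM at 0 mM. No marker of either list was at 0 in all larvae of a group. The summed level of the 4 enterocyte markers was 895 to 1566 CPM at 33 mM, against 1559 to 3214 CPM at 0 mM, with a list median of -1.12 over 3 tested genes. The part of these cells in the levels of prdx1, hmox1a, nqo1 and sqstm1 was not tested.

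With valproic acid nqo1 was lower at the highest dose, and the calls of hmox1a, prdx1 and sqstm1 were each lost without 1 or more strains. nqo1 ran from 25.0 to 130.1 CPM with a median of 72.2 in the 40 larvae at 20 µM, against 41.0 to 245 CPM with a median of 105 in the 40 larvae at 0 µM. At 20 µM 23 of 40 larvae lay below every control of their own strain and 3 of 40 above the control median. The log2 fold change was -0.62 (SE 0.11, 0.652-fold, adjusted p 1.22e-06 by edgeR's quasi-likelihood test), and it passed the test in each of 12 alternative analyses, with values from -0.70 to -0.55. At 1 and 5 µM nqo1 had medians of 119 and 119 CPM and log2 fold changes of 0.087 and 0.12, neither of which passed the test. Strain medians at these doses were above that at 0 µM in AB (107 and 113, against 79.4 CPM), RW, TU and WIK. They were below it in PET (76.1 and 78.3, against 96.8 CPM). Between 20 and 5 µM nqo1 was lower by the test (-0.74, SE 0.11, adjusted p 9.13e-09), 1 of 8 genes where 8.6% of all genes were called lower. Within strains nqo1 was called in WIK, at 50.3 to 119 CPM with a median of 76.5 at 20 µM, against 113 to 245 CPM with a median of 128 at 0 µM (-0.997, adjusted p 0.00170), with 6.47% of genes called lower. It was also called in TU (-0.78, adjusted p 0.0305), with 3.2% of genes called lower, a call lost where TU was fitted alone (-0.83, adjusted p 0.163). In RW nqo1 did not pass in the fit of all strains and was called where RW was fitted alone (-0.58, adjusted p 0.00914). Its RW median was 80.0 CPM at 20 µM, against 122 CPM at 0 µM, and 6 of 8 larvae lay below every RW control. In AB and PET nqo1 had medians of 66.9 and 59.5 CPM at 20 µM, against 79.4 and 96.8 CPM at 0 µM. The interaction of strain and dose did not pass for nqo1 (adjusted p 0.495). In the same larvae the 3 tested enterocyte markers were lower, with fabp2, an intestinal fatty acid binding protein, at a log2 fold change of -2.19 (adjusted p 2.07e-31) and a list median of -1.20. The summed level of the 4 enterocyte markers was 818 to 1966 CPM at 20 µM, against 1352 to 3963 CPM at 0 µM, no marker was at 0 in all larvae of a group, and their part in the nqo1 values was not tested.

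hmox1a ran from 1.73 to 50.4 CPM with a median of 14.7 at 20 µM, against 4.10 to 115 CPM with a median of 22.3 at 0 µM, a log2 fold change of -0.57 (SE 0.19, adjusted p 0.0171). The 115 CPM belonged to PET control larva 3, with 156 counts of hmox1a, while the other 7 PET controls ran from 5.39 to 30.0 CPM. Without that larva the log2 fold change over strains was -0.38 (adjusted p 0.108), and without the PET larvae it was -0.34 (adjusted p 0.218). The call was also lost without the RW (adjusted p 0.0603) or the WIK larvae (adjusted p 0.0753), and without larvae of low total count (adjusted p 0.117). Within PET, hmox1a was called at 1, 5 and 20 µM, with log2 fold changes of -1.56, -1.81 and -1.59, where 7.2%, 6.44% and 5.51% of genes were called lower, and without PET control larva 3 these were -0.76, -1.002 and -0.79 with adjusted p-values of 0.289, 0.174 and 0.338. The call at 20 µM was also lost where PET was fitted alone (-1.54, adjusted p 0.0601). In WIK hmox1a was called at 20 µM where that strain was fitted alone (-0.84, adjusted p 0.0356). There 5 of 8 larvae at 20 µM lay below every WIK control. In TU the hmox1a median was higher, at 21.5 CPM at 20 µM, against 16.1 CPM at 0 µM, whereas it was lower in AB, PET, RW and WIK. The interaction of strain and dose passed for hmox1a (adjusted p 0.0255) and not without PET control larva 3 (adjusted p 0.265) or with the total count of the larva as a covariate (adjusted p 0.114). All 4 skeletal muscle markers were also lower at 20 µM, with a summed level of 4541 to 18910 CPM at 20 µM, against 7783 to 29104 CPM at 0 µM, and their part in the hmox1a values was not tested.

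prdx1 ran from 49.2 to 207 CPM with a median of 107 at 20 µM, against 40.0 to 216 CPM with a median of 71.0 at 0 µM, and 33 of 40 exposed larvae were above the control median. Its log2 fold change was 0.32 (SE 0.11, adjusted p 0.0197). The call was lost without the larvae of AB, PET, RW or TU in turn, with log2 fold changes from 0.17 to 0.33, and with no filter on low counts (0.29, adjusted p 0.0576). Within strains prdx1 was called in TU, at a median of 121 CPM at 20 µM, against 62.5 CPM at 0 µM (0.80, adjusted p 0.0209), where 3.74% of genes were called higher, and not where TU was fitted alone (0.78, adjusted p 0.202). In WIK its median was 118 CPM at 20 µM, against 132 CPM at 0 µM.

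sqstm1 was lower at 5 µM and not at 20 µM. It ran from 11.4 to 84.7 CPM with a median of 51.7 in the 40 larvae at 5 µM, against 27.3 to 132 CPM with a median of 67.6 at 0 µM, and 6 of 40 larvae were above the control median. The log2 fold change at 5 µM was -0.59 (SE 0.13, adjusted p 0.00222), where 2.52% of genes were called lower and sqstm1 was the 1 gene of the 8 called. At 20 µM the median was 72.0 CPM, with 222 CPM in the highest larva, and the log2 fold change was 0.17 (SE 0.13, adjusted p 0.360). Where AB was fitted alone sqstm1 was called higher at 20 µM (0.74, adjusted p 0.0327). Fitted alone, RW and WIK had log2 fold changes of -0.064 and -0.0043. By the test sqstm1 was higher at 20 than at 5 µM (0.76, SE 0.13, adjusted p 5.41e-07), where 8.59% of all genes were called higher. Within strains sqstm1 at 5 µM had a median of 28.3 CPM in PET and 27.8 CPM in TU, against 60.2 CPM in PET and 62.4 CPM in TU at 0 µM, with log2 fold changes of -1.01 (adjusted p 0.0142, where 6.44% of genes were called lower) and -1.08 (adjusted p 0.0737). In AB the median was 60.2 CPM at 5 µM, against 59.2 CPM at 0 µM. The interaction passed for sqstm1 (adjusted p 0.0398), 2 of 8 genes with hmox1a where 13.1% of 21073 genes passed, and not with the total count of the larva as a covariate (adjusted p 0.102) or with DESeq2 size factors (adjusted p 0.0594). The call at 5 µM was lost without the PET larvae (-0.49, adjusted p 0.112) and without larvae of low total count (-0.47, adjusted p 0.0838). PET larvae had median total counts of 727936 at 5 µM, against 1557113 at 0 µM, and TU larvae 849131, against 1582654.5. The WIK median was also lower at 5 µM (2915013.5, against 4075198.5), and the AB and RW medians were higher. The part of depth was not tested beyond these fits.

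**Figure D4:**
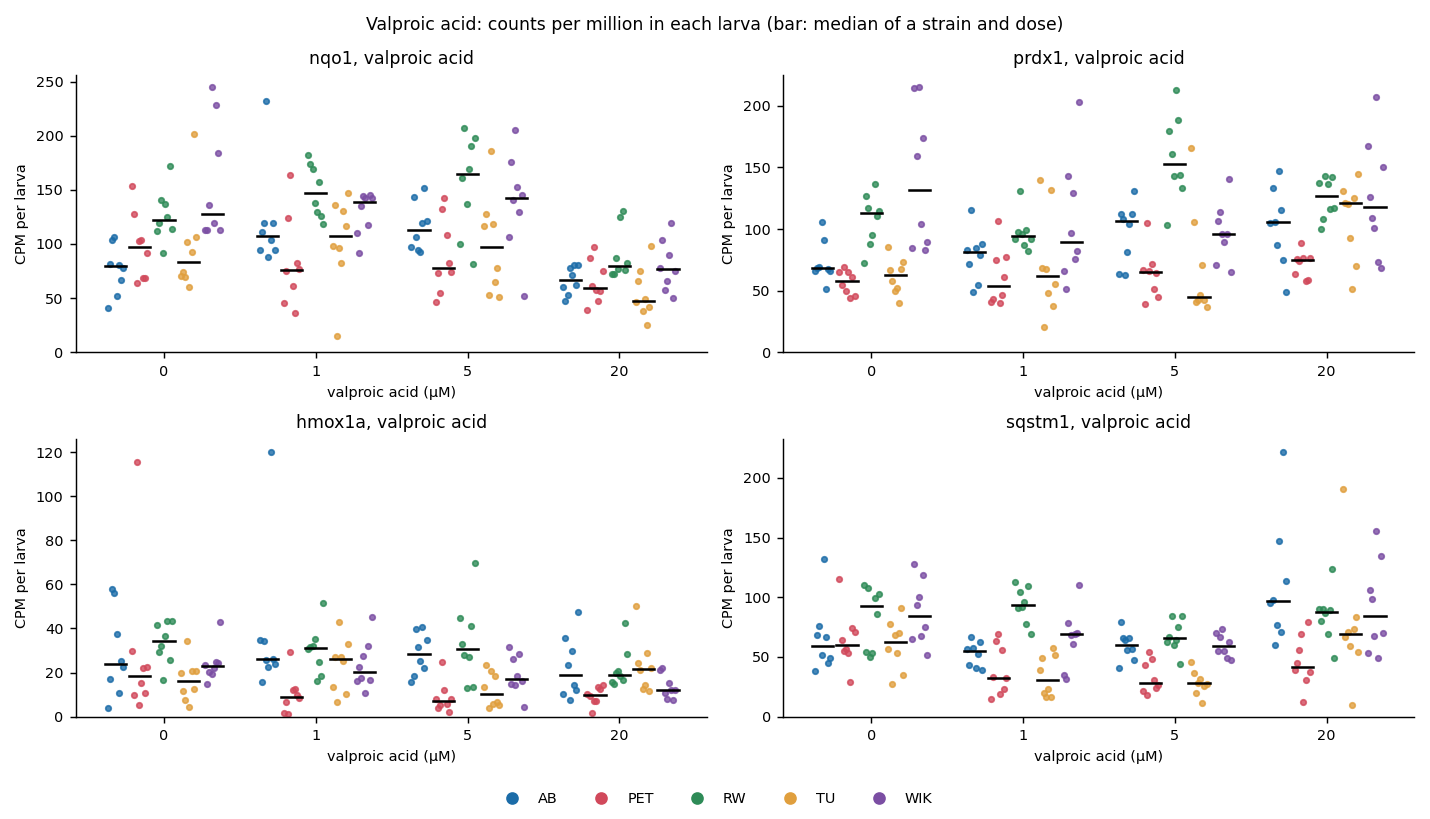
CPM of nqo1, prdx1, hmox1a and sqstm1 in each larva (points) by valproic acid dose and strain (colors), with a black bar at the median of each strain and dose. The nqo1 medians at 20 µM, 47.8 to 80.0 CPM, lie below the medians at 0 µM, 79.4 to 128 CPM, in each strain, and 1 PET control stands at 115 CPM for hmox1a.

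At 1 µM no gene of the 8 was called by edgeR's quasi-likelihood test, where 0.0431% of all genes were, and 1 had an unadjusted p under 0.05, sqstm1 (-0.40, SE 0.13, adjusted p 0.182), which DESeq2 called (adjusted p 0.0333). gclc and gclm at 20 µM had log2 fold changes of -0.068 (95% interval -0.44 to 0.30, adjusted p 0.838) and -0.28 (95% interval -0.57 to 0.019, adjusted p 0.184). The gclc median at 20 µM was below that at 0 µM in AB (13.7 against 17.5 CPM), PET (3.98 against 8.72 CPM) and WIK (10.1 against 20.6 CPM). It was above it in RW (19.7 against 14.5 CPM) and TU (20.0 against 9.21 CPM). Where WIK was fitted alone gclc was called lower (-1.02, adjusted p 0.0324). keap1a had a log2 fold change of -0.46 (SE 0.22, adjusted p 0.126) and keap1b of 0.037 (SE 0.22, adjusted p 0.927). Over strains keap1a was called lower only without the TU larvae (-0.60, adjusted p 0.0468). It was also called lower where RW was fitted alone (-0.68, adjusted p 0.0410). Within PET keap1a was called at 20 µM, at 0 to 11.9 CPM with a median of 2.01, against 2.45 to 21.0 CPM with a median of 8.41 at 0 µM (-1.75, SE 0.55, adjusted p 0.0317), where 5.51% of genes were called lower. That call was lost without PET control larva 3 (-1.67, adjusted p 0.0583) and where each strain was fitted alone (adjusted p 0.170). PET larvae had a median total count of 1018274.5 at 20 µM, with a lowest of 349491, against a median of 1557113 at 0 µM. The keap1a levels of PET at 20 µM thus rest on few counts per larva, and the part of depth was not tested.

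In the wider pathway at valproic acid 20 µM, of 5 superoxide dismutase and catalase genes 3 were lower and none higher, with a list median of -0.39, beside 0.094 over all genes tested. Over all genes 10.6% were called higher and 12.5% lower at this dose, and the counts of each list stand beside these shares. They were sod1, at a median of 139 CPM at 20 µM, against 213 CPM at 0 µM (-0.51, adjusted p 8.19e-05), cat, catalase (-0.44, adjusted p 0.000561) and sod2 (-0.39, adjusted p 0.00268). Of 11 glutathione genes 4 were lower and 2 higher, with a list median of -0.20, and among the lower genes were the glutathione peroxidases gpx1b (-1.35, adjusted p 2.29e-09) and gpx1a (-0.78, adjusted p 0.00416) and slc3a2a (-0.55, adjusted p 0.000430), the heavy chain of the cystine carrier. Of 12 thioredoxin genes 3 were lower and 2 higher, with a list median of -0.11, and the lower genes were prdx2 (-0.72, adjusted p 3.81e-07), prdx3 (-0.70, adjusted p 6.02e-07) and txnipa (-0.60, adjusted p 5.04e-10). Of 7 NADPH genes 3 were lower and 2 higher, with a list median of -0.18, among them idh1 (-1.27, adjusted p 1.92e-17), tkta (-0.49, adjusted p 6.74e-07) and pgls (0.31, adjusted p 0.00805). Of 6 further targets cbr1 (0.41, adjusted p 0.0205) and ugdh (0.30, adjusted p 0.0365) were higher and abcc2 lower (-0.75, adjusted p 2.67e-10), with a list median of -0.13. Of 9 autophagy genes gabarapl2 (-0.39, adjusted p 0.000167) and map1lc3a (-0.41, adjusted p 0.0113) were lower, with a list median of -0.044. None of 10 regulators and none of 5 heme and iron genes was called by edgeR or by DESeq2, and 1 of each had an unadjusted p under 0.05. Of 5 hepatocyte markers 3 were lower and 1 higher, with a summed level of 2077 to 8367 CPM at 20 µM, against 2339 to 10864 CPM at 0 µM.

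**Figure D5:**
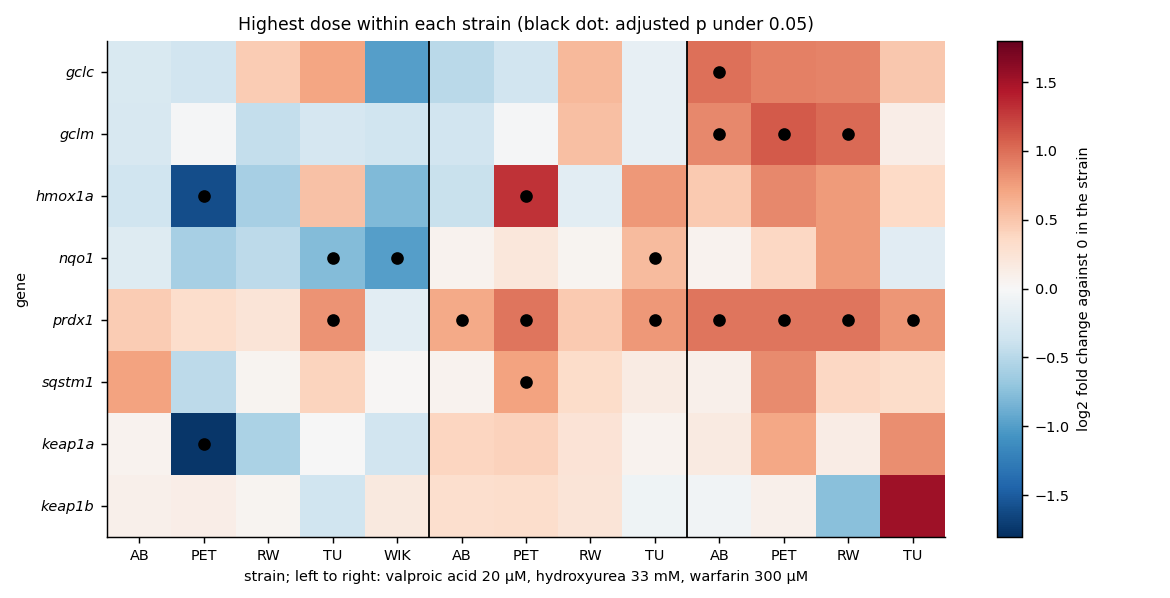
Log2 fold change of 8 Nrf2 genes (rows) at the highest dose against 0 within each strain (columns), for valproic acid 20 µM, hydroxyurea 33 mM and warfarin 300 µM from left to right; red is higher, blue is lower, and black dots mark an adjusted p under 0.05. prdx1 carries a dot in all 4 strains with warfarin and in 3 of 4 with hydroxyurea, and the dots of hmox1a stand in PET alone, blue with valproic acid and red with hydroxyurea. The valproic acid call of hmox1a in PET was lost without PET control larva 3, and hmox1a was called in WIK where that strain was fitted alone.

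Of the 8 genes 2, prdx1 and nqo1, differed between strains at 0 in the valproic acid and warfarin experiments and 1, prdx1, in the hydroxyurea experiment. With valproic acid that share was below the share of all genes. prdx1 differed between strains at 0 in all 3 experiments (adjusted p 2.71e-07, 0.0188 and 0.0303 for valproic acid, hydroxyurea and warfarin, edgeR's quasi-likelihood test), where 31.3%, 9.13% and 5.78% of all genes did. In the valproic acid experiment its median ran from 57.7 CPM in PET, 62.5 in TU and 68.2 in AB to 113 in RW and 132 CPM in WIK. Depth also differed between these controls, with median total counts of 1557113 in PET, 1582654.5 in TU, 2582194 in AB, 4535022.5 in RW and 4075198.5 in WIK. The part of depth in this order was not tested beyond the fits with total count as a covariate. In the hydroxyurea experiment the order was PET 56.5, AB 62.02, RW 80.0 and TU 83.8 CPM, and in the warfarin experiment AB 56.6, TU 74.5, RW 83.4 and PET 84.8 CPM, so PET was lowest among the strains in 2 experiments and highest in the other. The ranges of neighbors in these orders overlapped, as for PET (44.4 to 68.8 CPM) and TU (40.0 to 85.8 CPM) in the valproic acid experiment. nqo1 differed at 0 in the valproic acid (adjusted p 0.000906) and warfarin experiments (adjusted p 0.0347). Its medians in the valproic acid experiment were AB 79.4, TU 83.4, PET 96.8, RW 122 and WIK 128 CPM, and in the warfarin experiment PET 69.7, TU 89.6, RW 96.8 and AB 115 CPM, so that AB was lowest in one and highest in the other. hmox1a differed at 0 in the valproic acid experiment only without PET control larva 3 (adjusted p 0.0345, against 0.175 with it). With the total count of the larva as a covariate the strain difference did not pass for prdx1 in the hydroxyurea experiment (adjusted p 0.0503) or for nqo1 in the warfarin experiment (adjusted p 0.0555).

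How alike the genes moved was described over the 35 exposed groups of strain and dose, as Pearson's r of the mean log2 CPM minus that of the strain's control group, with no test, since the groups of a strain share their controls and their larvae differ in depth. Among the 8 genes the highest r was 0.71 for hmox1a with keap1a, followed by 0.70 for gclc with prdx1 and 0.65 for prdx1 with sqstm1. Next were 0.60 for hmox1a with sqstm1 and 0.58 for gclc with gclm. nqo1 had its highest r, 0.54, with hmox1a, and keap1b had no r above 0.068. Against 11514 genes, those most like gclc were cdc5l (0.84), pbdc1 (0.81) and txnrd3 (0.80), and those most like prdx1 were vcp (0.80), txn (0.80) and cyp2x7 (0.77). gclm was most like sord (0.79), bbox1 (0.72) and atp2a2b (0.70), nqo1 most like rhbg (0.81), atp5f1b (0.79) and apodb (0.79), and sqstm1 most like tescb (0.79), dnajc9 (0.77) and fthl27 (0.76). hmox1a was most like the muscle genes myl13 (0.83) and tnnt3b (0.81) and abce1 (0.81).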

How the data were processed

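Single larvae were measured, 340 in all. The deposited values are estimated counts, 1 value per gene symbol and larva, which the authors did not normalize, with no coordinates. The submitters' processing notes name GRCz11 and Seurat 5.1.0, and the aligner, the annotation and the counting rules are not given in the sources used here. Of the estimated counts 52 values were not whole, and all were rounded. No molecular identifiers are described, so copies made by amplification could not be told apart from separate RNA molecules.

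Within each compound, filterByExpr (minimum count 10, minimum total 15) selected genes, counts were scaled by TMM, and edgeR 4.0.16 in R 4.3.3 was run with glmQLFit and glmQLFTest. Strain and dose were terms for dose effects, and every strain at every dose had its own mean for strain effects, interactions (F-test) and strain differences at 0. P-values were adjusted by Benjamini-Hochberg over all genes tested. The SE was taken from the F statistic, and 95% intervals are normal. Alternatives were DESeq2 1.42.0 for dose contrasts, its size factors, no filter, a block on larva number, total count as a covariate, larvae with at least 0.5 times the median total, each strain fitted alone, and leaving out strains or larvae, of which 2 single control larvae were chosen after seeing the data. Fits were also run on counts simulated from the warfarin experiment with independent larvae. These simulations do not cover shared parents or the other compounds.

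All 9 genes are named. Of each pathway list, at most 3 called genes with the smallest p at the highest dose are named, and for each gene called at a highest dose the 3 genes of highest r, among those with at least 10 mean counts in each experiment. In the text nfe2l2a was added after its values were seen. Genes and lists were chosen with earlier results of these data known. txnrd1, txnrd2, hmox1b and osgin1 were listed and not analysed here. A further listed gene is not reported here by name.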

Additional observations from a re-analysis of the deposited data

Results flagged for a closer look

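Within a strain and dose, 1 larva lay far from the others on the log2 CPM scale (Dixon's criterion for 4 to 8 larvae) in 32 of 384 groups of gene, strain and dose, or 8.33%. For normal values the criterion flags about 1 in 20. Several flagged levels were 0 or near 0 CPM, where log2 CPM moves in steps and depends on depth, so the 8.33% cannot be judged against that rate. AB control larva 7 of the hydroxyurea experiment stood apart for 3 genes, with the highest gclc (93.1 CPM), the lowest hmox1a (1.53 CPM) and the lowest nqo1 (56.5 CPM) of its group. WIK larva 8 at valproic acid 5 µM also stood apart for 3 genes, with a gclc of 0, the lowest hmox1a (4.33 CPM) and the highest keap1a (26.0 CPM). The lowest total count in its group was 189169, against a group median of 2915013.5. In larvae of low total count such levels rest on few counts, and the part of depth in the larvae that stood apart was not tested.

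The other larvae that stood apart with hydroxyurea were TU larva 5 at 6.6 mM for gclc (38.1 CPM), RW larva 3 at 0 mM for gclm (10.5 CPM), TU larva 2 at 1.3 mM for gclm (0 CPM), TU larva 2 at 33 mM for hmox1a (3.87 CPM), TU larva 7 at 6.6 mM for nqo1 (135 CPM) and TU larva 5 at 33 mM for sqstm1 (83.7 CPM). For keap1a they were AB larva 7 at 1.3 mM (22.4 CPM), AB larva 1 at 33 mM (0 CPM), RW larva 6 at 33 mM (2.17 CPM) and RW larva 3 at 6.6 mM (2.63 CPM). For keap1b they were AB larva 2 (1.16 CPM) and TU larva 5 (1.21 CPM), both at 33 mM. Among the TU larvae at 1.3 mM the lowest total count was 124136, against a median of 4160147.

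With valproic acid they were AB larva 6 at 1 µM (120.1 CPM) and PET larva 3 at 20 µM (1.73 CPM) for hmox1a. For nqo1 they were TU larva 7 at 0 µM (202 CPM), AB larva 4 at 1 µM (232 CPM) and TU larva 3 at 1 µM (15.3 CPM). RW larva 3 at 1 µM stood apart for prdx1 (131 CPM) and TU larva 5 at 20 µM for sqstm1 (9.58 CPM). For keap1b they were PET larva 8 at 1 µM (0.770 CPM), WIK larva 6 at 1 µM (0.355 CPM) and WIK larva 7 at 20 µM (13.7 CPM). With warfarin they were AB larva 3 at 0 µM for gclm (2.93 CPM), PET larva 3 at 150 µM for hmox1a (48.0 CPM), TU larva 5 at 300 µM for sqstm1 (9.63 CPM) and RW larva 4 at 0 µM for keap1b (20.5 CPM).

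The interaction of strain and dose passed edgeR's quasi-likelihood test for hmox1a (adjusted p 0.0255) and sqstm1 (adjusted p 0.0398) with valproic acid, where 13.1% of all genes passed it, and for hmox1a (adjusted p 0.0467) and sqstm1 (adjusted p 0.0370) with hydroxyurea, where 2.82% did. Both valproic acid calls were lost with total count as a covariate (adjusted p 0.114 for hmox1a and 0.102 for sqstm1), that of hmox1a also without PET control larva 3 (adjusted p 0.265) and that of sqstm1 with DESeq2 size factors (adjusted p 0.0594). The hydroxyurea call of hmox1a was lost with DESeq2 size factors (adjusted p 0.0525) and with the replicate block (adjusted p 0.0855).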

How the results depend on the processing

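No called log2 fold change of an Nrf2 gene changed sign under the alternatives run. Of 1465 alternative values 78 had the other sign, in 40 log2 fold changes, none of which had passed the test. At the highest doses over strains these were gclc with hydroxyurea (-0.090, and 0.067 without AB control larva 7, 0.046 without AB and 0.092 without larvae of low total count), gclm with hydroxyurea (0.067, and -0.15 without RW), gclc with valproic acid (-0.068, and 0.11 with total count as a covariate and 0.15 without WIK), keap1b with valproic acid (0.037, and -0.032 to -0.0047 in 4 alternatives) and keap1b with warfarin (0.12, and -0.21 without TU). Counts of Nrf2 genes called (of 8 tested) moved as follows, and the cause was not tested. With valproic acid, DESeq2 called 1 gene at 1 µM, against 0 by edgeR. The 5 µM count of 1 was 0 without larvae of low total count and without PET, and the 20 µM count of 3 was 1 without PET and without RW. With each strain fitted alone at 20 µM, AB had 1 in place of 0, PET 0 in place of 2, RW 2 in place of 0, TU 0 in place of 2 and WIK 3 in place of 1, and PET also had 0 without PET control larva 3. The valproic acid interaction count of 2 was 1 with DESeq2 size factors and without PET control larva 3, and 0 with total count as a covariate. With hydroxyurea the 6.6 mM count of 0 was 1 without larvae of low total count and without AB. The 33 mM count of 4 was 2 with total count as a covariate, with no filter, without AB control larva 7 and without TU, and 1 without PET. In TU at 33 mM the count of 2 was 1 with the covariate, and leaving out single larvae gave 0 to 1 in RW at 33 mM. The hydroxyurea interaction count of 2 was 1 with DESeq2 size factors. At 0 mM 1 gene differed between strains, 2 with DESeq2 size factors and without AB control larva 7, and 0 with the covariate. With warfarin the 150 µM count of 3 was 1 without AB and without RW, and the 300 µM count of 5 was 3 without PET and without RW. In RW at 300 µM leaving out single larvae gave 1 to 3 in place of 2, and the strains at 0 count of 2 was 1 with the covariate.

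Larva numbers were not used to pair larvae in the main fits. Same-numbered larvae at the highest dose and at 0 in a strain correlated above 0.1 in 2 of 40 pairs for valproic acid, 1 of 22 for hydroxyurea and 1 of 24 for warfarin. Differently numbered larvae were not compared, so these counts cannot tell whether the numbers mark pairs. With the replicate block the hydroxyurea interaction count was 1 in place of 2, the RW count at warfarin 300 µM was 1 in place of 2, gclm in AB at warfarin 300 µM had an adjusted p of 0.0509, and no other count of these genes moved by over 1.5 times.

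Over all genes, counts called moved by over 1.5 times in these cases. Valproic acid 1 µM had 7, and 193 with DESeq2, 1 with its size factors, 1 with the covariate, 553 with no filter, 3 without larvae of low total count, and 0, 1, 43, 15 and 0 without AB, PET, RW, TU and WIK, and 1 without PET control larva 3. At 5 µM 454 became 250 with the covariate, 1154 with no filter, 95 without larvae of low total count and 65 without PET. With the covariate the interaction and strain counts of 2751 and 6591 became 1086 and 2706. Hydroxyurea 1.3 mM had 0, and 8 with DESeq2, 81 with no filter, 3 without larvae of low total count, and 10, 3 and 1 without AB, PET and RW. At 6.6 mM 181 became 352 with no filter and 83, 111 and 78 without PET, RW and TU, and at 33 mM 3447 became 2288 without PET. The strain counts of 1574 for hydroxyurea and 857 for warfarin became 649 and 349 with the covariate. Warfarin 150 µM had 434, and 203 and 255 without AB and RW, and 300 µM had 1285, and 681 without AB. Low counts limit keap1a, keap1b and srxn1 most, and srxn1 could not be tested.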
